A study of Mus musculus with 6 samples.

Results

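The 9 genes described here are products of the fibroblasts that build the meninges, together with the collagens that these cells lay down. They are Col1a1, Col1a2, Col3a1, Dcn, Lum, Ogn, Igf2, Slc6a13 and Aldh1a2, chosen by name as genes used to mark these cells, and they make up 9 of the 54532 genes in the deposited expression table. RNA-seq was performed on total RNA of brains collected on postnatal day 15 from 3 Angptl2-/- and 3 Angptl2+/+ mouse samples. ANGPTL2 is a secreted glycoprotein, and the mutant was examined for its part in oligodendrocyte differentiation and myelination. The mutant allele lacks exon 2. It was made on a C57BL/6 background by mating males that carried floxed Angptl2 and Stra8-cre, which deletes it in the male germ line, with wild-type females. The labels describe the material as all cell types of the brain. The dissection, the handling of the meninges and whether each library came from a separate mouse were not given in the sources used here, so p-values measure the spread between these samples only.

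The meninges are the layered membranes that wrap the brain, and their fibroblasts secrete a matrix of collagen fibres and proteoglycans. These cells also release retinoic acid and growth factors to the underlying brain and carry transporters that pass small molecules across the brain's outer border. Type I and type III collagens form fibrils. Small leucine-rich proteoglycans such as decorin, lumican and osteoglycin bind to fibrils and control how they assemble. In a piece of brain tissue these cells are a small minority, and the amount of meninges that stays on the tissue can vary from one preparation to the next.

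The sequences just before the transcription starts of 4 of these genes are shown because the genes moved together from library to library, as described below. In the table of RefSeq promoters used here (GRCm38.p6), 6 of the 9 genes were matched, and 4 of these had 1 start. Each is printed 5′ to 3′ as the 250 bases before the start, in lower case, with capitals marking any match to CCAAT or TATAAA on either strand (ATTGG or TTTATA on the opposite strand).
Col1a2: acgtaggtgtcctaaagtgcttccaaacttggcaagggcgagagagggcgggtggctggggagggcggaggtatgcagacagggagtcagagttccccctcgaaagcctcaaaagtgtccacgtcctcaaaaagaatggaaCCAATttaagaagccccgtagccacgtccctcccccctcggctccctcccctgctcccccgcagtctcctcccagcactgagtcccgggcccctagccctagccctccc
Col3a1: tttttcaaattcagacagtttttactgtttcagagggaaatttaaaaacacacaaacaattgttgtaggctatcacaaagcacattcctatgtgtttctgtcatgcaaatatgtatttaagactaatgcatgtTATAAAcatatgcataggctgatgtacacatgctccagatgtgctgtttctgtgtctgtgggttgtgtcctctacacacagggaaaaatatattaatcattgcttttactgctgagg
Ogn: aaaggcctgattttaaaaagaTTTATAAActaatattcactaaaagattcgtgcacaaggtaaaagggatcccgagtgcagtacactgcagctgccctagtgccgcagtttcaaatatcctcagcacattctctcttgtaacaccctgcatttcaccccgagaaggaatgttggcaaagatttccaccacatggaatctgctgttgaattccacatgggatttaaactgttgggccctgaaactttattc
Aldh1a2: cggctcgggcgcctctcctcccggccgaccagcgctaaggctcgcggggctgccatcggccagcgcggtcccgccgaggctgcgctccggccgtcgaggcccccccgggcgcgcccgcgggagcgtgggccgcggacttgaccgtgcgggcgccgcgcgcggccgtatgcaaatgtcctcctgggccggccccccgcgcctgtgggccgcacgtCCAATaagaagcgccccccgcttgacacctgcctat
The Col1a2 window lies at chr6:4505368-4505617, the Col3a1 window at chr1:45311288-45311537, the Ogn window at chr13:49607765-49608014 and the Aldh1a2 window at chr9:71215539-71215788, all on the plus strand. Starts are those of RefSeq, and for Col1a2 and Ogn they differ from the start of the GENCODE gene given further on, which places the Col1a2 window inside the GENCODE gene. A CCAAT match stood 109 bases before the start of Col1a2 and 36 bases before that of Aldh1a2, and none was found in the Col3a1 or Ogn window. The same letters were present in 33.8% of all 32851 promoter windows of this length. A TATAAA match stood 117 bases before the start of Col3a1, and 2 overlapping matches on opposite strands stood 227 and 229 bases before that of Ogn, against 12.4% of all windows with at least 1 match. GGGCGG, searched on both strands and not marked by capitals, occurred 2 times in the Col1a2 window and in none of the other 3, against 32.7% of all windows. The 4 windows differed in composition, with a GC content of 77.6% for Aldh1a2, 62.0% for Col1a2, 42% for Ogn and 35.2% for Col3a1. No letter string among those searched was therefore common to the 4 windows.

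The 3 Angptl2-/- libraries held 17127276 to 18928921 fragments assigned to genes, and the 3 Angptl2+/+ libraries 17457051 to 18167953. Levels are given as FPKM, fragments scaled to the exon length of the gene and to the size of the library. Angptl2 itself was listed at 0.166, 0.320 and 0.126 FPKM in Angptl2-/- libraries 1 to 3, against 0.660, 0.958 and 0.290 FPKM in Angptl2+/+ libraries 1 to 3. The groups overlapped for this gene (exact permutation test, two-sided p = 0.2, where 0.1 is the smallest p that 3 against 3 allows), and its mean was under the minimum for the test across genes. The libraries were also unequal in Xist, the RNA that coats the inactive X chromosome of females, at 0.0697, 42.2 and 0 FPKM in Angptl2-/- libraries and 27.4, 27.9 and 0 FPKM in Angptl2+/+ libraries. The Y-linked gene Ddx3y was detected in the libraries low in Xist, with 9.26, 0 and 14.7 FPKM in Angptl2-/- and 0, 0 and 9.96 FPKM in Angptl2+/+. In bulk tissue, fewer cells of a type and less RNA per cell cannot be told apart, which applies to every level below.

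The first comparison asked whether the meningeal fibroblast genes differed between Angptl2-/- and Angptl2+/+ brains. All 9 genes were detected in all 6 libraries and passed the filter on low values, and none passed the test across 14862 genes (limma on log2(FPKM + 0.1), Benjamini-Hochberg adjusted p under 0.05). The share of all genes tested that passed was 0% in either direction, so the lack of calls was shared by all genes. At an unadjusted p under 0.05, 0 of the 9 genes passed, against 7.09% of all genes higher and 9.12% lower in Angptl2-/- libraries. None of the 9 had groups that did not overlap, whereas 10.7% of all genes had every Angptl2-/- library above every Angptl2+/+ library and 11.8% had every one below. Their fold changes pointed both ways, with 3 above 0 and 6 below 0 and a median of -0.14 on the log2 scale, beside -0.0043 for all genes tested. What separated the libraries was a difference within each genotype, and each gene's values show it.

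Collagen I is a trimer of chains from Col1a1 and Col1a2, and collagen III is a trimer of the Col3a1 chain. Col1a1 (chr11:94936224-94953042, GRCm38) measured 3.30, 2.58 and 1.25 FPKM in Angptl2-/- libraries 1, 2 and 3, against 4.90, 4.29 and 1.27 FPKM in Angptl2+/+ libraries 1, 2 and 3. Replicate 3 of either genotype was far below the other libraries, and the groups overlapped. The means were 2.38 ± 1.04 FPKM in Angptl2-/- and 3.49 ± 1.94 FPKM in Angptl2+/+ (SD, n = 3 each). The log2 fold change was -0.43 (SE 0.54, 95% interval -1.71 to 0.84, limma adjusted p = 0.701). The partner chain Col1a2 (chr6:4504814-4541544) measured 3.76, 3.04 and 2.43 FPKM in Angptl2-/- libraries and 4.69, 4.72 and 1.59 FPKM in Angptl2+/+ libraries. Again the lowest library was Angptl2+/+ replicate 3, and the other Angptl2+/+ libraries were the highest of the 6. Its log2 fold change was -0.12 (SE 0.41, interval -1.08 to 0.84, limma adjusted p = 0.904). Col3a1 (chr1:45311538-45349706) had 2.69, 1.80 and 1.28 FPKM in Angptl2-/- libraries, against 2.80, 2.88 and 1.04 FPKM in Angptl2+/+ libraries. Replicate 3 was the lowest library of its genotype here too, and the fold change was -0.14 (SE 0.42, interval -1.13 to 0.85, limma adjusted p = 0.883).

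**Figure D1:**
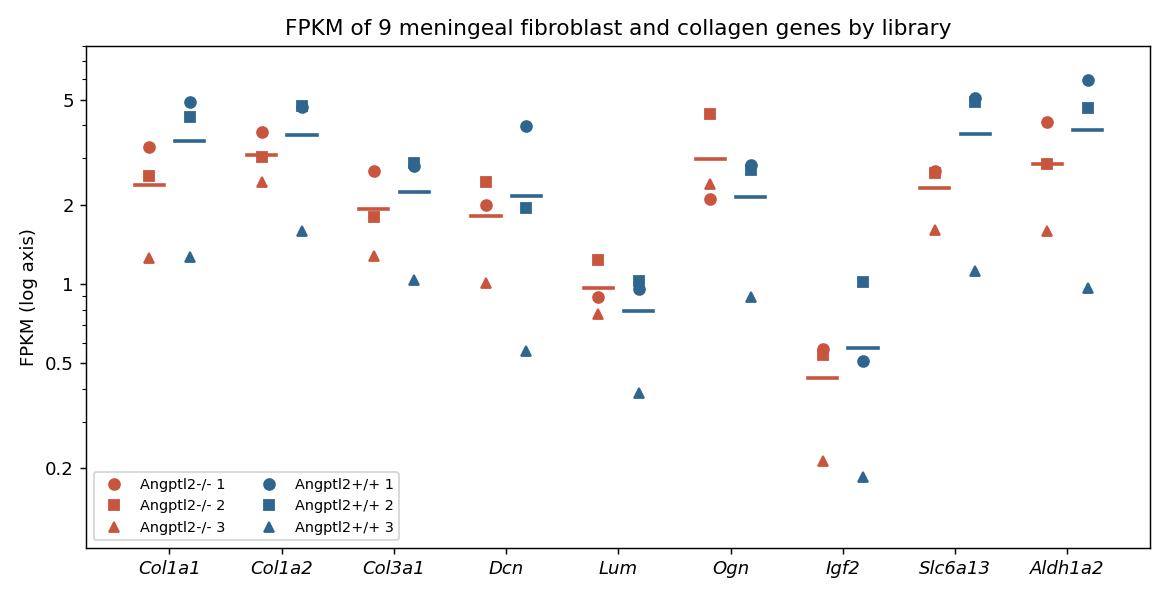
FPKM of each of the 9 genes on a log axis, 1 column per gene, with Angptl2-/- left of Angptl2+/+, 1 symbol per replicate and a bar for the mean of 3 libraries. For 8 of the 9 genes the lowest point is Angptl2+/+ replicate 3, and for no gene do the 2 genotypes separate.

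The 3 small leucine-rich proteoglycans were the genes with fold changes above 0. Decorin (Dcn, chr10:97479609-97518143), which coats collagen fibrils and binds growth factors, measured 1.99, 2.43 and 1.01 FPKM in Angptl2-/- libraries and 3.97, 1.95 and 0.555 FPKM in Angptl2+/+ libraries. The highest and the lowest of the 6 libraries were both Angptl2+/+, a 7.16-fold range within that genotype and the widest of any of the 9 genes. Its mean was 1.81 ± 0.723 FPKM in Angptl2-/- and 2.16 ± 1.72 FPKM in Angptl2+/+ (SD, n = 3 each), yet the log2 fold change was 0.04 (SE 0.64, interval -1.48 to 1.55, limma adjusted p = 0.982), so the arithmetic mean and the log mean differed in direction. Lumican (Lum, chr10:97565128-97572703), the keratan sulfate proteoglycan encoded next to Dcn, measured 0.895, 1.23 and 0.773 FPKM in Angptl2-/- libraries and 0.961, 1.03 and 0.385 FPKM in Angptl2+/+ libraries. Angptl2+/+ replicate 3 lay well below the other 5 libraries, which spanned a narrow range. The log2 fold change was 0.33 (SE 0.39, interval -0.58 to 1.24, limma adjusted p = 0.679).

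Osteoglycin (Ogn, chr13:49608046-49624501), also called mimecan, measured 2.11, 4.43 and 2.40 FPKM in Angptl2-/- libraries and 2.84, 2.70 and 0.895 FPKM in Angptl2+/+ libraries. Its pattern departed from that of the collagens, since Angptl2-/- replicate 2 was the highest library and Angptl2-/- replicate 1, not 3, was the lowest of its genotype. The means were 2.98 ± 1.26 FPKM in Angptl2-/- and 2.14 ± 1.08 FPKM in Angptl2+/+ (SD, n = 3 each). The log2 fold change of 0.54 was the largest of the 9 in absolute size (SE 0.46, interval -0.55 to 1.62, limma adjusted p = 0.562). Ogn lies within Cenpp on the opposite strand, which was listed at 0.184 to 0.651 FPKM, and reads of the pair cannot be told apart if strand was not used in counting.

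Igf2, Slc6a13 and Aldh1a2 are the non-matrix genes of the group. Igf2 (chr7:142650766-142666816), an imprinted growth factor that meninges and choroid plexus make in the rodent brain, was the least abundant of the 9, with 0.565, 0.538 and 0.213 FPKM in Angptl2-/- libraries and 0.509, 1.02 and 0.185 FPKM in Angptl2+/+ libraries. Both replicate 3 libraries were lowest, and the mean over all libraries, 0.506 FPKM, only just passed the minimum of 0.5. The mean of Igf2 was 0.439 FPKM in Angptl2-/- and 0.572 FPKM in Angptl2+/+ libraries. It thus passed only through the Angptl2+/+ group, which favours a fold change below 0. The log2 fold change was -0.18 (SE 0.60, interval -1.60 to 1.23, limma adjusted p = 0.897). Slc6a13 (chr6:121300227-121337733) encodes GAT2, a transporter of GABA and taurine at the brain's borders. It measured 2.69, 2.63 and 1.60 FPKM in Angptl2-/- libraries and 5.07, 4.92 and 1.12 FPKM in Angptl2+/+ libraries. In 2 of the 3 Angptl2+/+ libraries the level was above that of any Angptl2-/- library, and in the other it was below all of them. Its log2 fold change was -0.43 (SE 0.55, interval -1.73 to 0.87, limma adjusted p = 0.709).

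Aldh1a2 (chr9:71215789-71296243) encodes RALDH2, the dehydrogenase that makes retinoic acid from retinal. It measured 4.12, 2.85 and 1.59 FPKM in Angptl2-/- libraries and 5.92, 4.67 and 0.963 FPKM in Angptl2+/+ libraries. The extremes were those of Col1a2, Col3a1 and Slc6a13, with Angptl2+/+ replicates 1 and 2 at the top and both replicate 3 libraries at the bottom. The log2 fold change was -0.18 (SE 0.66, interval -1.72 to 1.37, limma adjusted p = 0.912). Exact permutation tests over the 6 libraries gave two-sided p-values from 0.5 for Col1a1 to 1.0 for Igf2. Each interval reached beyond 1 on the log2 scale on at least 1 side, so these libraries do not show that the levels of any of the 9 genes were equal in the 2 genotypes.

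**Figure D2:**
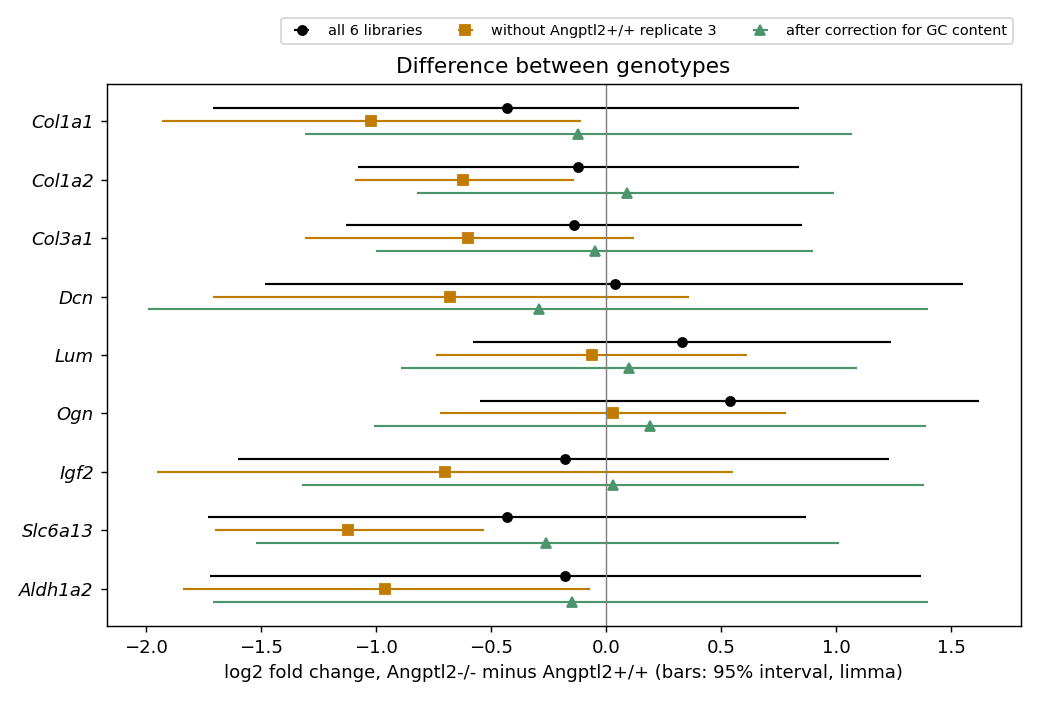
Log2 fold change of each gene, Angptl2-/- minus Angptl2+/+, on log2(FPKM + 0.1), with 95% intervals from limma, for all 6 libraries (black circles), without Angptl2+/+ replicate 3 (orange squares) and after correction for GC content (green triangles). Every interval crosses 0 with all 6 libraries and after the correction, and without Angptl2+/+ replicate 3 those of Col1a1, Col1a2, Slc6a13 and Aldh1a2 lie below 0 before any adjustment for the number of genes. That library was the lowest of its genotype for all 9 genes, so leaving it out lowers each fold change by construction.

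The second comparison was between libraries of the same genotype, where the 9 genes varied far more than most. The SD of log2 levels within a genotype ran from 0.53 for Lum to 1.07 for Aldh1a2, with a median of 0.823 over the 9, beside a median of 0.212 over all genes tested. This put the 9 genes between the 89.0th and the 97.0th percentile of all genes tested. The highest Angptl2-/- library exceeded the lowest by 1.55-fold for Col1a2 to 2.65-fold for Col1a1 and Igf2. Among Angptl2+/+ libraries the same ratio ran from 2.69-fold for Lum to 7.16-fold for Dcn, and for all genes tested the median ratio was 1.29-fold in Angptl2-/- and 1.31-fold in Angptl2+/+ libraries. The 9 genes are of low abundance, from the 0.256th percentile of mean FPKM for Igf2 to the 38.9th for Col1a2 among genes tested, and low genes carry a larger counting error.

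Counting error was smaller than the gaps among the Angptl2+/+ libraries shown here. Fragments were recovered from the FPKM values and the exon lengths, and the 9 genes together took 2577, 1995 and 1218 fragments in Angptl2-/- libraries 1, 2 and 3, against 3245, 2961 and 872 in Angptl2+/+ libraries 1, 2 and 3. Aldh1a2 had 179, 109 and 59 fragments in Angptl2-/- libraries and 239, 188 and 37 in Angptl2+/+ libraries. For Lum, the gene with the fewest fragments, the count was 16 in Angptl2+/+ replicate 3 (95% exact Poisson interval 9.15 to 26.0), against 42 (30.3 to 56.8) and 45 (32.8 to 60.2) in the other Angptl2+/+ libraries. Igf2 had 18 fragments (10.7 to 28.4) in Angptl2+/+ replicate 3, against 52 (38.8 to 68.2) and 104 (85.0 to 126) in the others. The intervals of replicate 3 did not overlap those of the other Angptl2+/+ libraries for either gene. Among Angptl2-/- libraries the gap for Lum was within counting error, with 42 (30.3 to 56.8), 51 (38.0 to 67.1) and 31 (21.1 to 44.0) fragments. These intervals cover counting error only.

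Angptl2+/+ replicate 3 was at or near the bottom for every one of the 9 genes, while the order of the other libraries differed between genes. Averaged over the 9 genes after each was centred on its mean over the 6 libraries, the log2 level was 0.23, 0.22 and -0.55 in Angptl2-/- libraries 1, 2 and 3, against 0.64, 0.57 and -1.11 in Angptl2+/+ libraries 1, 2 and 3. Angptl2+/+ replicate 3 was the lowest of the 6 libraries for 8 of the 9 genes, and Angptl2-/- replicate 3 was the lowest for the ninth, Col1a1. Of all genes tested, 16.7% were lowest in Angptl2+/+ replicate 3 and 24% in Angptl2-/- replicate 3. Angptl2+/+ replicate 1 was the highest library for 4 genes, Angptl2+/+ replicate 2 for 3, and Angptl2-/- replicate 2 for Lum and Ogn. The replicate numbers only name the libraries. The low libraries, replicate 3 of either genotype, were both among the 3 libraries with Ddx3y, as was Angptl2-/- replicate 1, whose levels were not low. The part of sex in the result was not tested.

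**Figure D3:**
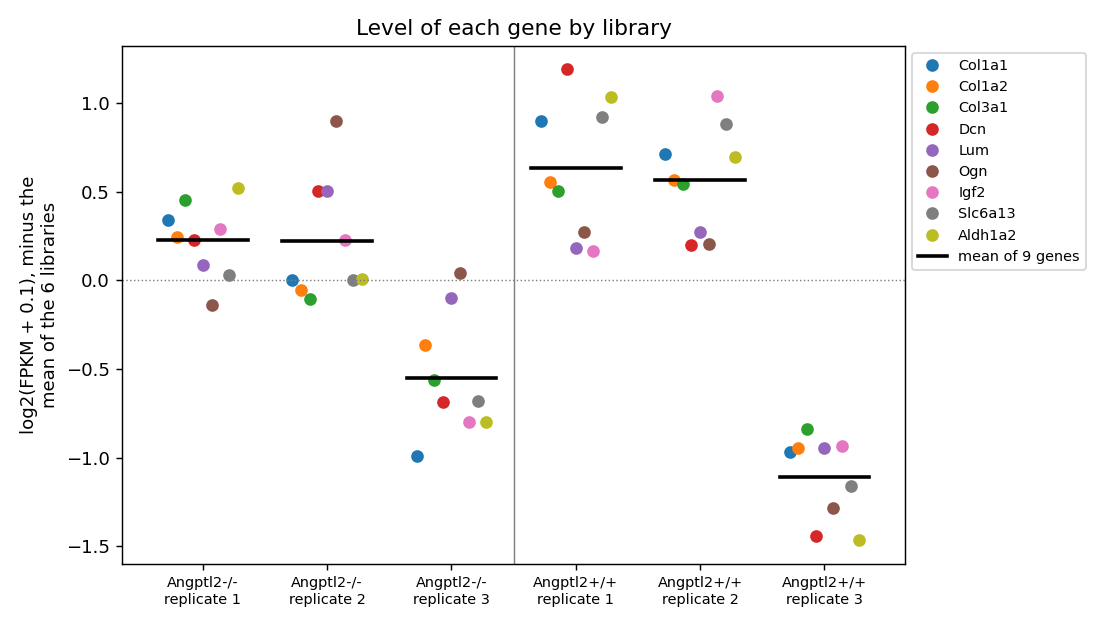
Log2(FPKM + 0.1) of each of the 9 genes in each library, minus that gene's mean over the 6 libraries, with Angptl2-/- libraries left and Angptl2+/+ libraries right, 1 colour per gene and a black bar for the mean of the 9. The bar stands at -1.11 in Angptl2+/+ replicate 3 and -0.55 in Angptl2-/- replicate 3, and above 0 in the other 4 libraries.

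Pearson correlations between pairs of the 9 genes over the 6 libraries ran from 0.523 to 0.985 over the 36 pairs, with a median of 0.878. They describe 6 libraries that share tissue, depth and any meningeal content. Col1a2 and Aldh1a2 were the pair with the highest value, and Lum and Ogn followed the same libraries as each other with a correlation of 0.97. The lowest values joined Ogn to the collagens, at 0.52 with Col1a1 and 0.53 with Col3a1. Ratios of FPKM values within a library show the same departure. The ratio of Ogn to Col1a2 was 0.562, 1.46 and 0.990 in Angptl2-/- libraries, against 0.605, 0.572 and 0.562 in Angptl2+/+ libraries, so that it was nearly constant in Angptl2+/+ and higher in 2 of the Angptl2-/- libraries. The ratio of Col3a1 to Col1a2 was steadier, at 0.715, 0.593 and 0.528 in Angptl2-/- libraries and 0.596, 0.611 and 0.656 in Angptl2+/+ libraries. The ratio of Col1a1 to Col1a2, the 2 chains of collagen I, was 0.877, 0.849 and 0.514 in Angptl2-/- libraries and 1.04, 0.909 and 0.800 in Angptl2+/+ libraries, with Angptl2-/- replicate 3 lowest. Of the 9 ratios computed, all had groups that overlapped, with exact two-sided permutation p-values of 0.3 to 0.8.

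Leaving out Angptl2+/+ replicate 3 changed the picture for several genes, though none passed the adjusted test. Without it the log2 fold change of Slc6a13 was -1.12 (limma unadjusted p = 0.00303, adjusted p = 0.207), that of Col1a1 was -1.02 (adjusted p = 0.228), that of Aldh1a2 was -0.96 (adjusted p = 0.235) and that of Col1a2 was -0.62 (adjusted p = 0.213). These 4 genes had an unadjusted p under 0.05, beside 10.8% of all genes tested that were lower at that level in the same fit. For these 4 and Col3a1, every Angptl2-/- library lay below both remaining Angptl2+/+ libraries, beside 21.5% of all genes tested. Dcn changed sign to -0.68 and Lum to -0.06, while Ogn was at 0.03, and the median of the 9 was -0.68. Leaving out any other single library gave medians from -0.38 without Angptl2-/- replicate 1 to 0.17 without Angptl2-/- replicate 3. Angptl2+/+ replicate 3 was left out to show its weight, and nothing in the labels marks it as faulty. It was the lowest library of its genotype for all 9 genes, so leaving it out lowers each fold change by construction. Over all 6 libraries it was the lowest for 8 of the 9 genes and for 16.7% of all genes tested. The shares over all genes are therefore not a like background for these counts.

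The label of the gene group was checked against 30 other genes of meningeal fibroblasts. Their mean log2 level over the tested genes followed that of the 9 genes with a correlation of 0.99 over the 6 libraries, and 17 of the 24 tested were lowest in Angptl2+/+ replicate 3, beside 16.7% of all genes tested. Single genes of the list differed. The correlation was above 0.9 for 10 of the 24, but -0.741 for Foxp1, -0.284 for Dpp4 and 0.044 for Nupr1. Between genotypes, 11 of the 24 were higher and 13 lower in Angptl2-/- libraries, with a median log2 fold change of -0.04 and none past the adjusted test. At an unadjusted p under 0.05, 1 of the 24 was higher and 2 were lower, beside 7.09% and 9.12% of all genes tested. Without Angptl2+/+ replicate 3 the median of the 24 was -0.53, as for the 9 genes on the negative side. Leaving out a library in which most of these genes were lowest favours that direction. Ptgds, prostaglandin D2 synthase and the most abundant of the list, measured 95.1, 102 and 81.2 FPKM in Angptl2-/- libraries and 241, 166 and 35.7 FPKM in Angptl2+/+ libraries. Angptl2+/+ replicate 3 was its lowest library, and it is also made by choroid plexus and oligodendrocytes. Ccn3, a secreted matricellular protein, had the smallest p of the list and a correlation of 0.38 with the mean of the 9 genes. Within either genotype replicate 3 was its lowest library. Ccn3 measured 104, 107 and 89.8 FPKM in Angptl2-/- libraries, against 69.7, 84.1 and 62.1 FPKM in Angptl2+/+ libraries, a log2 fold change of 0.48 (SE 0.14, limma adjusted p = 0.273). Its groups did not overlap, as for 10.7% of all genes tested in this direction.

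Among 12887 genes whose mean FPKM was 1 or more, the 5 most like the 9 genes over the 6 libraries were Creld2 (Pearson correlation 0.997 with the mean of the 9), Fmod (0.996), Foxc1 (0.995), Sap18 (0.992) and Nt5dc2 (0.990). Fmod encodes fibromodulin, a fibril-binding proteoglycan of the same family as Lum, and Foxc1 is a transcription factor needed for the meninges in mice. Both stood in the lists described here, whereas the other 3 did not. Foxc1 measured 1.51, 1.40 and 1.09 FPKM in Angptl2-/- libraries and 1.78, 1.76 and 0.827 FPKM in Angptl2+/+ libraries. The order of the 6 libraries was that of Aldh1a2, with a smaller range. In all, 1.31% of these genes had a correlation above 0.9 and 1.36% had one below -0.9. Of the 24 meningeal genes tested, 10 had one above 0.9, but these 24 entered at a mean FPKM of 0.5 or more, so the sets are unlike. The 5 genes at the opposite end were Fam205c (-0.988), Tmem243 (-0.987), Ccdc141 (-0.982), Zxdc (-0.982) and Gm12371 (-0.981). Correlations of this size were about equally frequent in either direction.

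**Figure D4:**
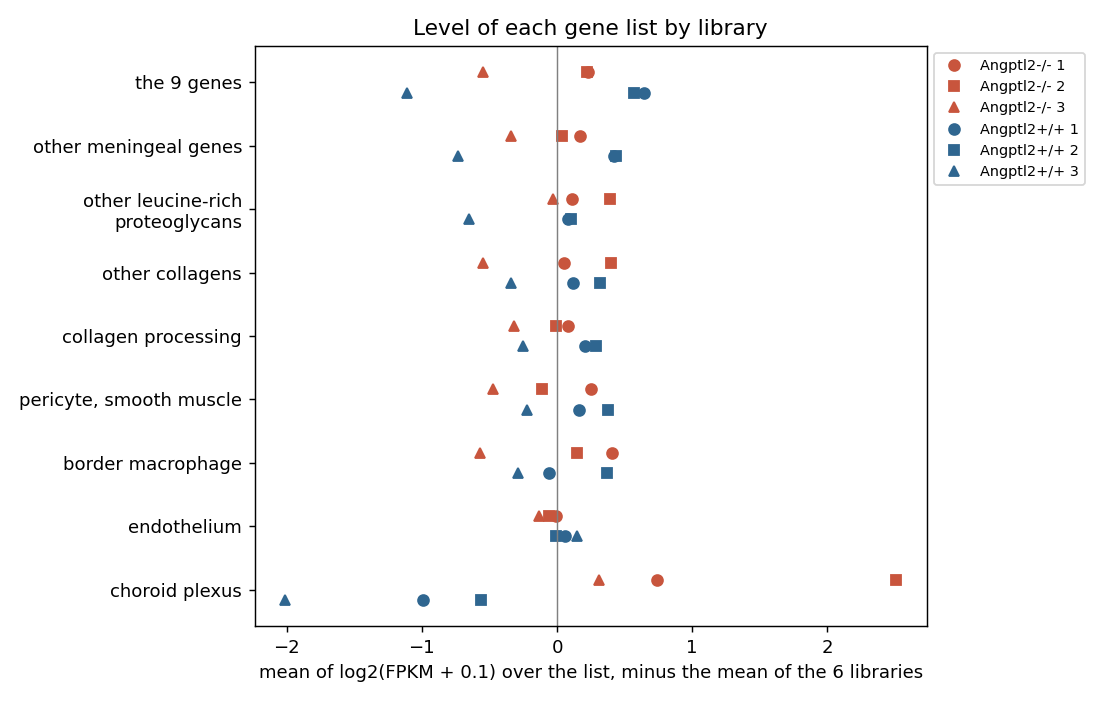
Mean log2(FPKM + 0.1) of the tested genes of each list in each library, minus the mean over the 6 libraries, with Angptl2-/- above Angptl2+/+ in each row and 1 symbol per replicate. The other meningeal genes are lowest in the same library as the 9 genes, with a smaller spread (-0.73 in Angptl2+/+ replicate 3), and the endothelial list hardly varies. The choroid plexus list means of the Angptl2-/- libraries lie above those of the Angptl2+/+ libraries. That list includes Folr1, Kcnj13 and Aqp1, which passed the filter only through their Angptl2-/- levels.

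Genes that make or modify the same matrix varied less between libraries, as list means, than the 9 genes. Their list means still followed the mean of the 9 genes over the 6 libraries. The correlations were 0.81 for other interstitial collagens, 0.91 for collagen processing, 0.88 for basement membrane chains and 0.80 for other leucine-rich proteoglycans. Of 10 tested chains of other interstitial collagens, 4 were higher and 6 lower in Angptl2-/- libraries, with a median of -0.15. Their summed level was 11.2 to 19.5 FPKM in Angptl2-/- and 10.96 to 17.4 FPKM in Angptl2+/+ libraries. Col6a1, a chain of the beaded-filament collagen VI and the most abundant of them, measured 6.52, 7.99 and 6.06 FPKM in Angptl2-/- libraries and 4.36, 7.25 and 4.22 FPKM in Angptl2+/+ libraries, with a correlation of 0.41 to the mean of the 9. Col5a1, a chain of the collagen V that nucleates type I fibrils, had a log2 fold change of -0.64 (SE 0.31, limma adjusted p = 0.343). Of 19 tested genes for collagen folding, hydroxylation, trimming and cross-linking, 15 were lower and 4 higher, with a median of -0.13. At an unadjusted p under 0.05, 1 was higher and 1 lower, beside 7.09% and 9.12% of all genes tested. Sparc, a collagen-binding glycoprotein, measured 109, 75.9 and 81.5 FPKM in Angptl2-/- libraries and 179, 114 and 85.1 FPKM in Angptl2+/+ libraries, and Adamts3, which trims procollagen, had the smallest p of the list with a log2 fold change of 0.62 (SE 0.18, limma adjusted p = 0.273). The 15 tested basement membrane chains, which vessels and the brain surface share, had a median of -0.26 with 11 lower and 4 higher. No gene of these lists passed the adjusted test.

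The genomic neighbours of the proteoglycans did not follow them as a block. Dcn and Lum lie beside Kera and Epyc on chromosome 10. Kera, the keratan sulfate proteoglycan of cornea, had 1 fragment in all 6 libraries together. Epyc (epiphycan), best known from cartilage, measured 0.611, 1.11 and 1.41 FPKM in Angptl2-/- libraries, against 0.263, 0.220 and 0.138 FPKM in Angptl2+/+ libraries. Its groups did not overlap, as for 10.7% of all genes tested in this direction, and its log2 fold change was 1.85 (SE 0.42, limma adjusted p = 0.273). The mean of Epyc was 1.04 FPKM in Angptl2-/- and 0.207 FPKM in Angptl2+/+ libraries. It thus passed the minimum of 0.5 only through the Angptl2-/- group, which favours a fold change above 0. Its correlation to the mean of the 9 genes was 0.014. On chromosome 13 next to Ogn, Aspn (asporin) had a log2 fold change of 0.02 (SE 0.24, limma adjusted p = 0.978), and Ecm2 had 0.64 (SE 0.45, limma adjusted p = 0.485). Ecm2 followed the mean of the 9 genes more closely (correlation 0.73) than Aspn (0.067) or the next gene, Omd (0.133). Omd (osteomodulin) was listed at 0.325, 0.685 and 0.679 FPKM in Angptl2-/- libraries and 0.648, 0.225 and 0.262 FPKM in Angptl2+/+ libraries and was too low for the test. H19, the imprinted RNA downstream of Igf2, measured 0.382, 0.289 and 0.248 FPKM in Angptl2-/- libraries and 1.66, 0.572 and 0.0479 FPKM in Angptl2+/+ libraries. The widest spread of H19 was thus within Angptl2+/+, as for Igf2, and its log2 fold change was -0.48 (SE 0.87, limma adjusted p = 0.801). The mean of H19 was 0.306 FPKM in Angptl2-/- and 0.761 FPKM in Angptl2+/+ libraries. It passed the minimum of 0.5 only through the Angptl2+/+ group, which favours a fold change below 0. Slc6a12, the betaine and GABA transporter gene beside Slc6a13, was at 0.233 to 0.461 FPKM in Angptl2-/- and 0.0386 to 0.532 FPKM in Angptl2+/+ libraries and was not tested. H19 and Slc6a12 followed the mean of the 9 genes, with correlations of 0.874 and 0.867.

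The pathways around Igf2, Aldh1a2 and Slc6a13 were read from lists of their other components. Of 11 tested genes for the other IGF ligand, the receptors, binding proteins and regulators, 5 were higher and 6 lower in Angptl2-/- libraries, with a median of -0.12. At an unadjusted p under 0.05, 1 was higher and 3 lower, beside 7.09% and 9.12% of all genes tested. Igfbp4, a secreted IGF-binding protein, measured 17.2, 16.9 and 16.7 FPKM in Angptl2-/- libraries and 22.8, 23.8 and 28.8 FPKM in Angptl2+/+ libraries, and Angptl2+/+ replicate 3 was its highest library. Its groups did not overlap, as for 11.8% of all genes tested in this direction. Its log2 fold change was -0.56 (SE 0.11, limma adjusted p = 0.273). Of 16 tested genes of retinoic acid synthesis, binding, breakdown and signalling, 8 were higher and 8 lower. Before adjustment, p was under 0.05 for 2 of the higher genes and 4 of the lower ones. Among all genes tested, 7.09% reached that level in the higher direction and 9.12% in the lower. Rxrb, a retinoid X receptor, was the most abundant of the 16 and had a log2 fold change of -0.56 (SE 0.16, limma adjusted p = 0.273). Of 5 tested genes for GABA transport and breakdown, 1 was higher and 4 lower, with a median of -0.03. No gene of these 3 lists passed the adjusted test.

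Markers of other cell types at the brain's borders were set beside the 9 genes. None of the 8 tested of the 12 choroid plexus genes passed the adjusted test. All 8 had fold changes above 0. Of these, 4 had an unadjusted p under 0.05, beside 7.09% of all genes tested, and 4 had groups that did not overlap, beside 10.7%. The filter took the mean over all 6 libraries. Folr1, Kcnj13 and Aqp1 had Angptl2+/+ means of 0.202, 0.237 and 0.434 FPKM, under the minimum of 0.5. They passed only through their Angptl2-/- levels, which favours fold changes above 0. The whole list summed to 106 to 948 FPKM in Angptl2-/- and 2.35 to 10.002 FPKM in Angptl2+/+ libraries. Ttr, the transthyretin that choroid plexus epithelium secretes, measured 141, 916 and 99.6 FPKM in Angptl2-/- libraries and 2.34, 4.29 and 0.580 FPKM in Angptl2+/+ libraries (log2 fold change 6.92, SE 0.95, limma adjusted p = 0.273). Slc4a5 was listed at 0 in Angptl2+/+ replicates 2 and 3, and Calml4 at 0 in Angptl2+/+ replicate 3. The library highest in the choroid plexus list, Angptl2-/- replicate 2, was also highest for Lum and Ogn, and the part of choroid plexus tissue, whose stroma holds fibroblasts, was not tested.

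Pericyte and smooth muscle markers (8 of 10 tested) had a correlation of 0.78 with the 9 genes and summed to 48.6 to 72.7 FPKM in Angptl2-/- and 50.3 to 74.0 FPKM in Angptl2+/+ libraries. Markers of border-associated macrophages (6 of 8 tested) had one of 0.71 and summed to 3.99 to 8.24 FPKM in Angptl2-/- and 4.97 to 8.10 FPKM in Angptl2+/+ libraries. Endothelial markers did not follow the 9 genes, with a correlation of -0.23 and sums of 96.9 to 106 FPKM in Angptl2-/- and 118 to 136 FPKM in Angptl2+/+ libraries. Markers of bone, muscle and skin, which would show skull or scalp carried along, were mostly near the limit of detection, since 3 of 12 passed the filter, and they had a correlation of -0.16 with the 9 genes. The mean of the neuron markers ran opposite to the 9 genes, with a correlation of -0.93, though it spanned only -0.18 to 0.18 on the log2 scale. Its gene of smallest p, Stmn2, had a correlation of -0.113, and its most abundant gene, Slc17a7, one of -0.604. Neuron markers summed to 1193 to 1299 FPKM in Angptl2-/- and 1058 to 1408 FPKM in Angptl2+/+ libraries. No red cell marker passed the adjusted test. At an unadjusted p under 0.05, 5 of 5 were lower in Angptl2-/- libraries, beside 9.12% of all genes tested. For 3 of the 5 the groups did not overlap, beside 11.8% of all genes tested. Their sums were 125 to 274 FPKM in Angptl2-/- and 302 to 498 FPKM in Angptl2+/+ libraries. Astrocyte markers summed to 392 to 462 FPKM in Angptl2-/- and 376 to 484 FPKM in Angptl2+/+ libraries, and those of myelinating oligodendrocytes to 537 to 980.4 FPKM in Angptl2-/- and 831 to 1698 FPKM in Angptl2+/+ libraries. Cerebellum markers summed to 31.0 to 40.6 FPKM in Angptl2-/- and 27.0 to 85.8 FPKM in Angptl2+/+ libraries, and striatum markers to 75.9 to 164.5 FPKM in Angptl2-/- and 34.5 to 89.7 FPKM in Angptl2+/+ libraries. The part of these cell types and regions in the levels of the 9 genes was not tested.

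The direction of each fold change went with the base composition of the gene. The longest transcripts of Ogn, Dcn and Lum have a GC content of 36.3%, 37.4% and 41.9%, and those of the other 6 genes run from 50.6% for Aldh1a2 to 58.9% for Col1a1. Over the 9 genes the correlation of GC content with log2 fold change was -0.86, and over 14845 tested genes with a known sequence it was -0.479, where genes are not independent replicates. The 1875 genes with at most 42% GC had a median log2 fold change of 0.29, and the 3396 genes with at least 55% GC had one of -0.29. After a loess correction for GC content within each library, Ogn had a log2 fold change of 0.19, Lum 0.10, Dcn -0.29, Col1a2 0.09, Igf2 0.03 and Col1a1 -0.12, and the median of the 9 was -0.05. The proteoglycans thus no longer stood apart from the collagens in direction, and the signs of Dcn, Col1a2 and Igf2 were the opposite of those without the correction. The part of base composition in the measured levels was not tested.

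**Figure D5:**
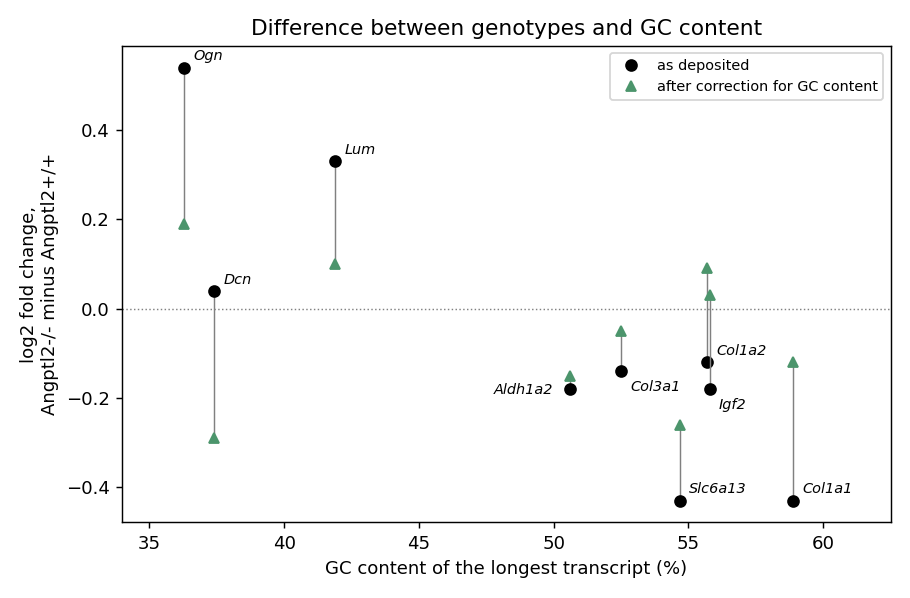
GC content of the longest transcript in percent against log2 fold change, Angptl2-/- minus Angptl2+/+, for the 9 genes, with a black circle for the deposited values joined to a green triangle for the value after correction for GC content. The 3 genes with the lowest GC content, Ogn, Dcn and Lum, are the only black circles above 0, and after correction Dcn lies below 0 and Col1a2 and Igf2 above it.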

How the data were processed

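RNA was extracted from postnatal day 15 brains with TRIzol and sequenced as 150 bp read pairs on an Illumina HiSeq instrument. The authors deposited FPKM values per gene for 3 Angptl2-/- and 3 Angptl2+/+ libraries. Bowtie 0.12.2 and mm8 are named in the submitters' processing notes, and the counting method, gene models, strandedness and filtering were not given in the sources used here. Of 54532 gene identifiers, 54495 matched GENCODE M21 (GRCm38), whose positions and summed exon lengths were used. FPKM times exon length gave whole fragments (tolerance 0.05) for 96.6 to 96.8% of values.

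Genes whose mean FPKM was 0.5 or more (14862 genes) were tested with limma 3.58.1 in R 4.3.3, with an intensity trend, on log2(FPKM + 0.1), Angptl2-/- minus Angptl2+/+, with Benjamini-Hochberg adjustment and a threshold of 0.05. Fold changes on this scale understate changes of low genes. The script was tested on simulated data. Exact permutation tests were two-sided. Alternatives changed the pseudocount, filter, scaling, GC and length correction, block, test and libraries. Sex was not a term of any fit. Figures used matplotlib 3.10.9.

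The 9 genes and the other lists were chosen with earlier results of these data known. Other genes named were taken from those of smallest p or highest level in a list, with tissue and cell type lists mostly given as sums, and from the 5 genes most and least like the 9, genomic neighbours and Angptl2. Xist, Ddx3y, Cenpp, Gapdh, Slc4a5, Calml4, Folr1, Kcnj13, Aqp1, Foxp1, Dpp4 and Nupr1 were named after their values were seen. The most abundant gene of 1 list is not reported here.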

Additional observations from a re-analysis of the deposited data

How the results depend on the processing

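None of the 9 genes passed the adjusted test under any of 20 alternatives, the smallest adjusted p being 0.207, and the depth limits Lum and Igf2 most. GC correction gave Dcn -0.29, Col1a2 0.09 and Igf2 0.03 on the log2 scale, the opposite sign of the reported values, with the replicate block after it or without, and a pseudocount of 1 gave Dcn -0.05; the cause was not tested. Leaving out each library in turn, the number of the 9 genes with an unadjusted p under 0.05 ran from 0 to 4 and the number whose groups did not overlap from 0 to 5, both highest without Angptl2+/+ replicate 3, and their median from -0.68 to 0.17. Fold changes ran from -0.62 to 0.14 for Col1a2, -0.60 to 0.10 for Col3a1, -0.68 to 0.64 for Dcn, -0.06 to 0.55 for Lum, -0.70 to 0.29 for Igf2 and -0.96 to 0.29 for Aldh1a2; Col1a1, Slc6a13 and Ogn kept their direction. Among all genes, the calls ran from 0 to 1 when a library was left out, the 1 being Gapdh without Angptl2+/+ replicate 1. With the replicate number as a block, 1 gene was called among all genes and among the other lists (Ttr, limma adjusted p = 0.0233), and none of the 9, whose median stayed at -0.14. The numbers do not pair the libraries: deviations of same-numbered libraries had correlations of 0.037, -0.069 and 0.162, and Angptl2-/- replicate 1 correlated best with Angptl2+/+ replicate 2 (0.257). limma-voom on recovered fragments also called 0 genes; of those tested, 1151 were higher and 1224 lower when p was left unadjusted.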
